A study of Mus musculus with 4 samples.

Results

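NF-kB is a family of dimeric transcription factors built from 5 subunits, and *Nfkb1*, *Nfkb2*, *Rel*, *Rela* and *Relb* encode them. In resting cells inhibitor proteins of the IkB family hold the dimers in the cytoplasm. Signals from receptors for TNF, IL-1 or microbial and viral products activate IkB kinases, the inhibitor is degraded, and the dimers enter the nucleus. Among the genes they switch on are some that act back on NF-kB, called feedback genes here. Of these, *Nfkbia* encodes the IkB protein that is resynthesised first, *Tnfaip3* encodes a ubiquitin-editing enzyme that shuts off signalling above the kinases, and *Nfkbiz*, *Nfkbid* and *Bcl3* encode atypical IkB proteins that act in the nucleus. In blood stem and progenitor cells the pathway is known for its part in inflammatory responses and in the maintenance of the stem cell pool. RNA levels were read here, and not the activity of the dimers.

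The 10 genes were chosen by symbol, 5 subunit genes and 5 feedback genes, and all 10 were among the 18598 genes of the deposited table. RNA was measured in LSK cells, the lineage-negative, Sca1-positive and c-Kit-positive stem and progenitor cells of bone marrow, from C57BL/6 mice aged about 3 months. Bptf cKO cells came from Bptf f/f mice with *Mx1*-cre, labelled Bptf -/-, and control cells came from Bptf f/f littermates. The control cells carried the floxed allele without cre, and both genotypes had received pIpC, a double-stranded RNA mimic that induces the interferon-responsive *Mx1* promoter. An effect of cre itself therefore cannot be told apart from the loss of *Bptf*. There were 2 libraries of each genotype, each a pool of LSK cells of 5 mice sorted at day 10 of cre induction, so the spread between libraries is one between pools. The control libraries held 24875746 and 14091054 reads on listed genes in replicates 1 and 2, and the Bptf cKO libraries 30134742 and 14104526. Values are normalized counts, that is, reads divided by a size factor for each library. Differences are log2 fold changes, Bptf cKO minus control, of the normalized count plus 1, tested with limma and adjusted over the 14858 genes whose normalized counts averaged 10 or more. A gene was called when its adjusted p was under 0.05 and its level differed by more than 1.5-fold. All 10 genes passed the filter on the mean, with at least 151 reads in every library.

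Every library carried the RNA of the sorted markers, with *Kit* between 13634 and 17051 normalized counts and *Ly6a*, which encodes Sca1, between 726 and 1743. Over the 6 markers of LSK cells and their subsets the median log2 fold change was -0.45 and 0 were called. *Slamf1*, a stem cell marker, was at 315 and 554 in control and 207 and 278 in Bptf cKO (-0.80, limma adjusted p = 0.32). The progenitor markers *Flt3* and *Cd48* had -0.76 and -0.69 with overlapping genotypes (limma adjusted p of 0.395 and 0.448). *Bptf* was at 5520.4 and 5850.1 normalized counts in the control libraries and at 3398 and 3319.9 in the Bptf cKO libraries. It was called lower, at -0.76 on the log2 scale with a standard error of 0.090 (limma adjusted p = 0.0439). Without either Bptf cKO library 0 of all tested genes were called lower, so that this call was lost too. These counts cover the whole gene, of which cre removes exon 2. Markers of cells outside the gate were also read. The 6 neutrophil markers summed to 31313 normalized counts in control replicate 1, 3129 in control replicate 2, and 10642 and 5259.98 in the Bptf cKO libraries, and the 6 monocyte and macrophage markers to 3750.4 to 7756 in control and 3829 to 4078 in Bptf cKO. Most of the latter sum was *Lyz2*, at 6123 and 3229 in control and 2955 and 2815 in Bptf cKO. *Ly6c2*, of the same list, went the other way, at 526 and 240 in control and 852 and 729 in Bptf cKO. The 6 B cell markers summed to 1793 to 6807 in control and 2262 to 3813 in Bptf cKO. The 6 erythroid markers summed to 1683 to 2284 in control and 406 to 468 in Bptf cKO libraries. Both Bptf cKO libraries were below both control libraries for 5 of the 6, against 23.8% of all tested genes. Of 6 T and NK cell markers 2 were listed, summing to 1229 to 1940.1 in control and 2284 to 2297 in Bptf cKO, nearly all of it *Nkg7*. Of 6 endothelial and stromal markers 5 were listed, summing to 1763 to 2783 in control and 2487 to 2506 in Bptf cKO, nearly all of it *Pecam1*. *Ms4a1* was at 0 in 1 library, and no other listed marker of these lists was at 0. In such pooled cells, fewer cells of a type and less RNA per cell cannot be told apart, and the part of these markers, those of LSK subsets included, in the results on NF-kB genes was not tested.

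Because several of these genes are themselves NF-kB targets, their promoters were read for the binding motif first. RefSeq promoter windows (GRCm38.p6, 250 bases before to 50 after an annotated start) were matched by symbol for 7 of the 10 genes, in 12 windows, and not for *Nfkb1*, *Relb* and *Nfkbiz*. A 9-letter core, GGNNNTTCC, was searched on both strands together with the 10-letter NF-kB consensus, and the matches of these motifs often overlap each other. Of the 7 genes, 6 held a core match and 6 a consensus match, all but *Rela* in both cases. Among 27025 genes with such windows, 20.7% held the core and 5.14% the consensus in at least 1 window. Counted by window, 10 of 12 held the core against 18.5% of all 32851 windows, and 8 of 12 held the consensus against 4.51%. A match is a description of the letters and not a measured binding site.

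The promoters of 3 feedback genes and of the subunit gene without a match are shown as examples. In the RNA data below the genotypes separated for *Nfkbia* and *Tnfaip3* and overlapped for *Bcl3* and *Rela*. *Nfkbid*, which separated too and holds matches, is not shown. Capitals mark the matches of either motif, and each window is written 5′ to 3′ on the strand of its gene. *Nfkbia* is at chr12:55492598-55492897, *Tnfaip3* at chr10:19015361-19015660 and *Bcl3* at chr7:19822706-19823005, all on the minus strand, and *Rela* is at chr19:5637291-5637590 on the plus strand.
Nfkbia: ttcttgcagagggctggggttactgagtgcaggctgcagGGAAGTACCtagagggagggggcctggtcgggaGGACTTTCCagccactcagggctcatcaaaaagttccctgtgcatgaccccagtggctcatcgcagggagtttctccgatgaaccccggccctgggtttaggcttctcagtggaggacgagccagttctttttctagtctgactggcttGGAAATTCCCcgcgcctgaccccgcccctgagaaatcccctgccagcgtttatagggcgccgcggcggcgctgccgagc
Tnfaip3: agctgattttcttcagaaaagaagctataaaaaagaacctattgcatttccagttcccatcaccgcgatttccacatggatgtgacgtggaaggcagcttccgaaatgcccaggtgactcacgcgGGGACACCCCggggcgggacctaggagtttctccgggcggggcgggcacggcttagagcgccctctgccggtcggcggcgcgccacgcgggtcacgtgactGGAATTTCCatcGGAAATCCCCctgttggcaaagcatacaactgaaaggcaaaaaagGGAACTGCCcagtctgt
Bcl3: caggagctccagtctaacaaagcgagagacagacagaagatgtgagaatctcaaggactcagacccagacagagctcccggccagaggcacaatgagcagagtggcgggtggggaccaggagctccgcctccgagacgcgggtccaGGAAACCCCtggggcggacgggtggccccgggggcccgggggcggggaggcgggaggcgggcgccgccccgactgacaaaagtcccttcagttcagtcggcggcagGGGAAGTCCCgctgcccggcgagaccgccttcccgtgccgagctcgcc
Rela: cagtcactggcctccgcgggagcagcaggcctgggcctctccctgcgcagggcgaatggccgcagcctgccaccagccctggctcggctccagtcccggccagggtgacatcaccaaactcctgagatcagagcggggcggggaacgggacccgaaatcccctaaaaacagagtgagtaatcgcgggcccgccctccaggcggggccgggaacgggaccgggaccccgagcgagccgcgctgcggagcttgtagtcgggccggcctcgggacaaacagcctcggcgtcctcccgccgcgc

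Positions are those of the first base of a match from the annotated start, negative before it. In *Nfkbia* the match nearest to the start lay at -29, where a core and a consensus match share the letters of GGAAATTCCC, and 2 further core matches lay at -178 and -211. In *Tnfaip3* a core match, GGAATTTCC, lay at -24, and overlapping core and consensus matches, GGAAATCCCC, lay at -12. *Bcl3* held a consensus match, GGGAAGTCCC, just inside the transcribed part, at 3. *Nfkb2*, a subunit gene, had matches at all 3 of its annotated starts, among them GGGAATTCCC, which reads the same on both strands, at -39 from the first. The only site of the third window, GGGACTTTCC at -225, is the same stretch as that at 11 in the second. *Rel* had 1 stretch of overlapping matches, from -92. Matches were therefore found both in feedback genes and in subunit genes.

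**Figure D1:**
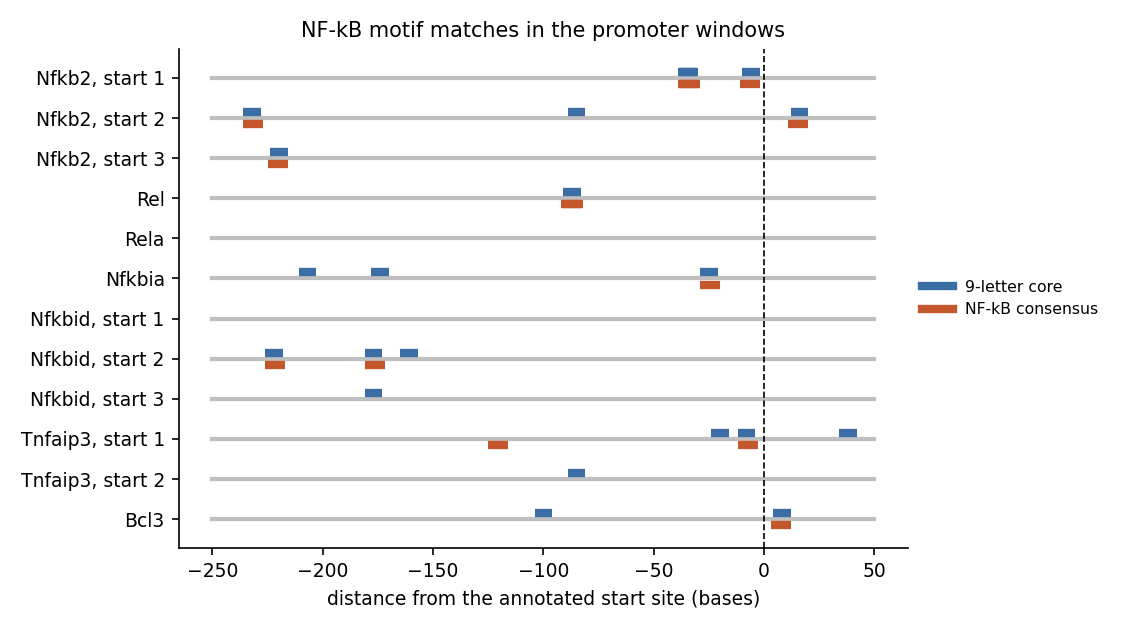
Places of the 9-letter core (blue) and of the NF-kB consensus (orange) in the 12 promoter windows of 7 genes, by distance in bases from the annotated start (dashed line), with 1 row for each window. Matches on either strand are drawn, and the windows of Rela and of the first start of Nfkbid hold none.

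The RNA of the 5 subunits did not separate the genotypes, and that of 4 of the 5 feedback genes did, without any of the 10 genes passing the test. *Nfkbia*, *Nfkbiz*, *Nfkbid* and *Tnfaip3* each had less RNA in either Bptf cKO library than in either control library. None of the 10 genes was called by limma, where 0.37% of the tested genes were called lower and 0.37% higher. None was called by the edgeR quasi-likelihood test (0.633% of tested genes called) or by the DESeq2 Wald test (4.64%) on the recovered reads either. At an unadjusted limma p under 0.05 the data held 2 of the 10 genes lower, *Nfkbia* and *Nfkbiz*, against 8.96% of all tested genes lower, and 0 of 10 higher, against 6.79%. At the same unadjusted threshold edgeR had 2 of the 10 lower, against 9.01% of tested genes, and DESeq2 had 4 of the 10 lower, against 8.1%. Neither had any of the 10 higher. Groups that did not overlap were common in these data: both Bptf cKO libraries lay below both control libraries for 23.8% and above them for 23.2% of tested genes, beside 4 and 0 of the 10 NF-kB genes. The median log2 fold change was -0.082 over the 10 genes and 0.0010 over all tested genes. It was -0.0054 over the 5 subunits and -0.50 over the 5 feedback genes. With a library left out, the median of the feedback genes ranged from -0.22, without control replicate 2, to -0.65, without control replicate 1, and that of the subunits from -0.056 to 0.029.

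**Figure D2:**
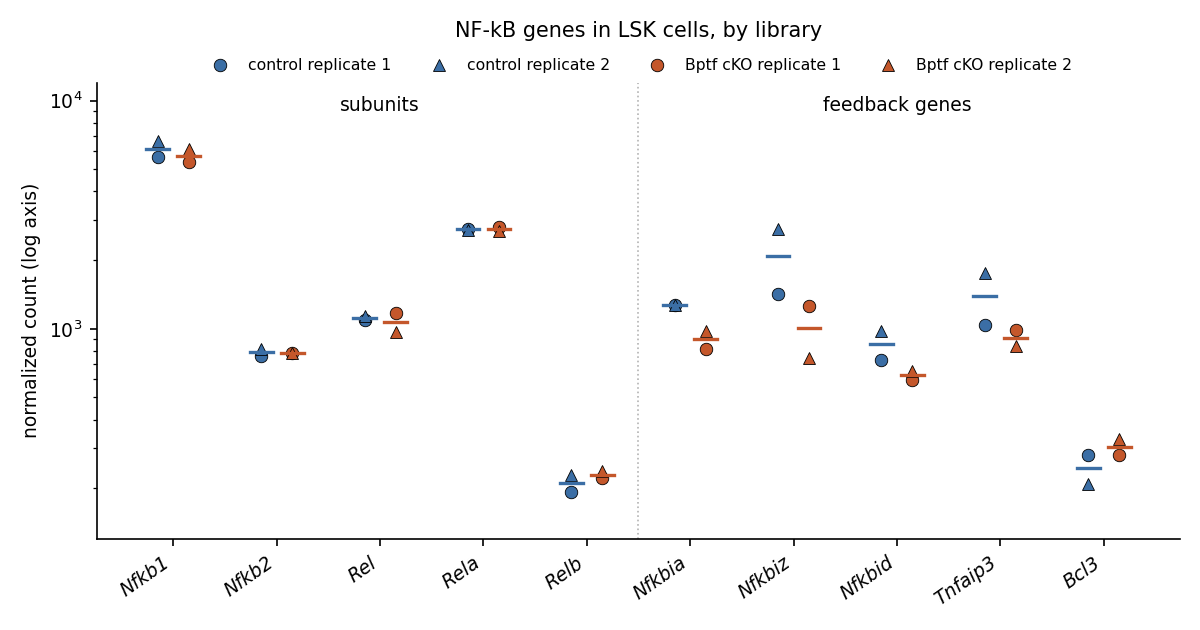
Normalized counts on a log axis of the 10 NF-kB genes in the 2 control (blue) and 2 Bptf cKO (orange) libraries, with circles for replicate 1, triangles for replicate 2 and lines for the mean of each genotype. The genotypes overlap for all 5 subunits and for Bcl3, and do not overlap for Nfkbia, Nfkbiz, Nfkbid and Tnfaip3.

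*Rela*, on chromosome 19 from 5637483 to 5648130 (GENCODE vM21, GRCm38), encodes the main activating subunit. It had 2741 and 2711 normalized counts in the control libraries and 2781 and 2689 in the Bptf cKO libraries. The 4 libraries lay close together and the genotypes overlapped. The log2 fold change was 0.0047, with a 95% interval of -0.22 to 0.23 (limma adjusted p = 0.989).

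*Nfkb1*, on chromosome 3 from 135584655 to 135691547, encodes the precursor of the partner that RELA binds in the classical dimer. Its libraries were at 5682 and 6628 normalized counts in control and 5359.9 and 6122 in Bptf cKO. Both replicates 2 were above both replicates 1, and the log2 fold change was -0.099 (95% interval -0.41 to 0.21, limma adjusted p = 0.769). *Rel*, on chromosome 11 from 23736847 to 23770970, encodes a subunit known best from lymphoid cells. It was at 1095 and 1132 in control and at 1173 and 965 in Bptf cKO, so that the Bptf cKO libraries enclosed the control libraries. Its log2 fold change was -0.066 (95% interval -0.41 to 0.28, limma adjusted p = 0.876).

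The subunits of the alternative pathway, in which the *Nfkb2* precursor is processed and pairs with RELB, gave the same picture. *Nfkb2*, on chromosome 19 from 46304320 to 46312385, was at 759.6 and 815 normalized counts in control and 782 and 786 in Bptf cKO libraries. The control libraries enclosed the others, with a log2 fold change of -0.0054 (95% interval -0.30 to 0.29, limma adjusted p = 0.989). An exon of *Psd* lies over *Nfkb2* on the other strand, and reads of both cannot be told apart where counting ignored strand, which the sources used here do not give. *Relb*, on chromosome 7 from 19606217 to 19629438, was the least sequenced of the subunits, at 192 and 229 in control and 222 and 237 in Bptf cKO. Here too the genotypes overlapped, and the log2 fold change was 0.13 (95% interval -0.36 to 0.61, limma adjusted p = 0.817). The intervals of all 5 subunits include 0, and they reach down to between -0.22 and -0.41 and up to between 0.21 and 0.61.

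*Nfkbia*, on chromosome 12 from 55489410 to 55492647, was the feedback gene with the smallest spread between control libraries. It had 1267 and 1268 normalized counts in control and 814 and 982 in Bptf cKO libraries. The control libraries differed by 0.0018 on the log2 scale, far less than the gap of both to the Bptf cKO libraries. The Bptf cKO libraries differed from each other by 0.27. Without Bptf cKO replicate 1 the log2 fold change was -0.37, and without Bptf cKO replicate 2 it was -0.64. Over all 4 libraries the values were as follows. The log2 fold change was -0.50 (standard error 0.13, 95% interval -0.84 to -0.17), a level 1.42 times as high in control. Its unadjusted p was 0.0114 and its limma adjusted p 0.182, so it did not pass the test over all genes.

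*Nfkbiz*, on chromosome 16 from 55811375 to 55838899, encodes a nuclear IkB protein that is needed for secondary response genes such as *Il6*. It was at 1424 and 2736 normalized counts in control replicates 1 and 2 and at 1259.5 and 746 in Bptf cKO replicates 1 and 2. The lower control library and the higher Bptf cKO library were near each other, while the other two lay far apart. Its log2 fold change of -1.02 was the largest of the 10 genes in size and had the largest standard error, 0.38 (95% interval -1.99 to -0.056, limma adjusted p = 0.298).

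The distance between its 2 control libraries was 0.94 on the log2 scale, above the 95th percentile of 0.858 over the 10815 genes that averaged 100 or more. Without control replicate 2 the log2 fold change of *Nfkbiz* was -0.55, and without Bptf cKO replicate 2 it was -0.65. Without control replicate 1 it was -1.50. The size of the difference in *Nfkbiz* thus varied with the library used, and its sign was the same each time.

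*Tnfaip3*, on chromosome 10 from 19000910 to 19015657, had 1034 and 1760.2 normalized counts in control and 985 and 839.5 in Bptf cKO libraries. As for *Nfkbiz*, control replicate 2 stood above the rest, and control replicate 1 was only slightly above Bptf cKO replicate 1. The log2 fold change was -0.57 (standard error 0.27, 95% interval -1.24 to 0.11, limma adjusted p = 0.394), and -0.18 without control replicate 2. *Nfkbid*, on chromosome 7 from 30421732 to 30428746, encodes a nuclear IkB protein. It was at 729 and 979.9 in control and 597 and 652 in Bptf cKO. Its Bptf cKO libraries were close together below both control libraries, with a log2 fold change of -0.44 (standard error 0.18, 95% interval -0.89 to 0.013, limma adjusted p = 0.330). Without control replicate 2 the value for *Nfkbid* was -0.22, and the value for *Nfkbia* without that library was -0.50.

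*Bcl3*, on chromosome 7 from 19808462 to 19822770, encodes a nuclear IkB protein that can give NFKB1 and NFKB2 dimers the ability to activate transcription. It was the only feedback gene whose genotypes overlapped and the only one with a log2 fold change above 0. Its libraries were at 279.8 and 209 normalized counts in control and 279.5 and 327 in Bptf cKO, so that control replicate 1 and Bptf cKO replicate 1 were nearly at the same level. The log2 fold change was 0.32 (standard error 0.22, 95% interval -0.23 to 0.87, limma adjusted p = 0.550). An exon of the antisense RNA *Gm16175* lies over *Bcl3*, with the same limit on strand as for *Nfkb2*. Without control replicate 2 the value was 0.11.

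**Figure D3:**
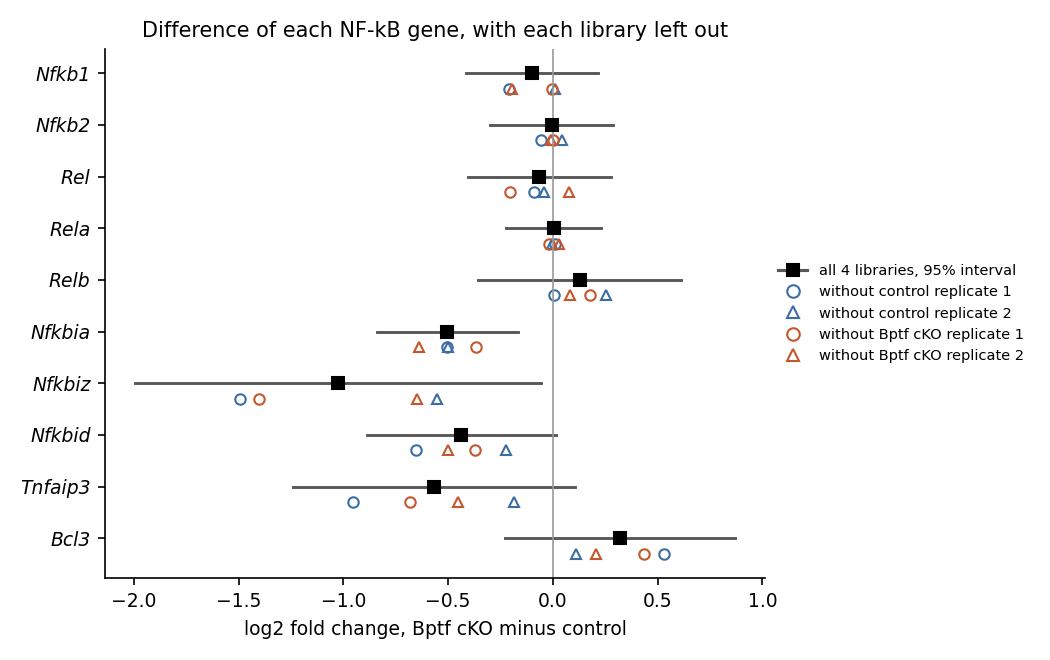
Log2 fold change of each gene, Bptf cKO minus control, over all 4 libraries (squares) with its 95% limma interval (lines), and with each library left out in turn (open symbols). The values of Nfkbia, Nfkbiz, Nfkbid and Tnfaip3 stay below 0 with any library left out, and those of Nfkbiz and Tnfaip3 move most.

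Both Bptf cKO libraries were below control replicate 1 alone for 4 of the 10 genes (38.8% of tested genes) and below control replicate 2 alone for 6 (37.9%).

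Levels of the genes were compared per kilobase of the longest annotated transcript, as normalized counts per 1000 bases averaged over the 4 libraries. *Nfkb1* came first with 1434 and *Rela* second with 1005, and their ranges over libraries were separate. *Nfkbia* followed with 686, ranging from 516 to 804, and overlapped with *Nfkbiz* at 375. *Nfkbid* had 363, and its range was separate from that of *Nfkb2* at 204. *Tnfaip3* at 186, *Bcl3* at 148 and *Rel* at 146 overlapped with their neighbours, and *Relb* was lowest, at 67.2, with a range of 58.7 to 72.4 that was separate from the others. The first place of *Nfkb1* depended on the length used, because over all its annotated exons, 12061 bases, it had 493 per kilobase and ranked 3 after *Rela* and *Nfkbia*. The longest transcripts of *Nfkb1*, *Relb* and *Tnfaip3* are annotated as retained-intron forms. Per length of the longest protein-coding transcript, *Tnfaip3* had 261 and ranked 6, above *Nfkb2*, and its range overlapped that of *Nfkbid*. *Relb* ranked 10 under each of the 3 lengths.

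The rest of the pathway was read from lists of genes by role. Of 20 tested receptors and adaptors that feed the kinases, 0 were called in either direction, and the median log2 fold change was -0.015, between -0.046 and 0.014 with a library left out. Both Bptf cKO libraries were below both control libraries for 7 of the 20, against 23.8% of all tested genes. They were above both for 5 of the 20, against 23.2%. *Il1r1*, the signalling receptor of IL-1, was at 1305 and 708 normalized counts in control and 556 and 529 in Bptf cKO, or -0.82 on the log2 scale (limma adjusted p = 0.28). *Tlr2*, a receptor for bacterial lipoproteins, had -0.38, while *Ltbr*, the lymphotoxin receptor that feeds the alternative pathway, had 0.29 and *Irak4*, a kinase of the IL-1 and Toll-like receptor complex, had 0.24 (limma adjusted p of 0.359, 0.27 and 0.586).

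The 10 kinase genes likewise had 0 calls and a median of 0.030, which was -0.024 without Bptf cKO replicate 1. *Ikbke*, an IkB kinase relative of the interferon response, was at 1256 and 1202 normalized counts in control and 900.1 and 876 in Bptf cKO, or -0.47 on the log2 scale (limma adjusted p = 0.139). *Map3k14*, the kinase of the alternative pathway, had -0.32 (limma adjusted p = 0.343). *Chuk*, an IkB kinase subunit, was at 1269.7 and 1315 in control and 1691 and 1487 in Bptf cKO, a value of 0.30 (limma adjusted p = 0.305). *Tab1*, a partner of the kinase upstream, had 0.16 (limma adjusted p = 0.591).

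Among 11 other inhibitors of the pathway 0 were called, and the median was -0.095. *Nfkbie*, which encodes the epsilon form of IkB, was at 661 and 671 normalized counts in control and 411 and 536 in Bptf cKO. Its libraries were ordered as those of *Nfkbia*, and its log2 fold change was -0.50 (limma adjusted p = 0.260). *Nfkbie* was also among the 5 genes closest to *Nfkbia* in its pattern over the 4 libraries, out of the 10815 genes averaging 100 or more. The root-mean-square difference of their centred log2 values was 0.0396, and *Mvk*, *Saysd1* and *Erg* were at 0.0281 to 0.0390. With 4 libraries this likeness is a description only, and of the 9 other NF-kB genes *Nfkbid* was the closest, at 0.162 and rank 607. *Nfkbiz*, at 0.557, was further from *Nfkbia* than *Bcl3*, at 0.438. *Zc3h12a*, an RNase that degrades inflammatory transcripts, differed by -0.45 on the log2 scale (limma adjusted p = 0.251), *N4bp1* had 0.18 (0.459) and *Tax1bp1*, an adaptor of the TNFAIP3 protein, had 0.14 (0.562).

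Classical target genes diverged from each other. Of 24 genes listed as targets, 21 were tested and 0 were called by limma. At an unadjusted limma p under 0.05, 5 of the 21 were lower, against 8.96% of all tested genes. Higher at that threshold was 1 of the 21, against 6.79%. The median log2 fold change of the targets was -0.22. This median varied with the library left out, and was -0.089 without control replicate 1, -0.079 without control replicate 2 and 0.0023 without Bptf cKO replicate 1. The chemokine gene *Ccl3* was at 859 and 267 normalized counts in control replicates 1 and 2 and 225 and 119.9 in Bptf cKO, or -1.54 on the log2 scale (limma adjusted p = 0.315). Its neighbour *Ccl4* was at 389 and 215 in control and 109.8 and 106 in Bptf cKO, or -1.42 on the log2 scale (limma adjusted p = 0.14). Control replicate 1, which held the most *Ccl3* and *Ccl4*, had the highest sum of every marker list but that of T and NK cells. Within the monocyte and macrophage list, *Cd14*, *Adgre1* and *Ly6c2* were each highest in a Bptf cKO library. The part of such cells in the values of *Ccl3* and *Ccl4* was not tested.

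In the other direction *Ptgs2*, the inducible prostaglandin synthase, had 1.00 (limma adjusted p = 0.413) and *Vcam1*, an adhesion receptor, had 0.48 (limma adjusted p = 0.640). The DESeq2 Wald test called *Ccl3* and *Ccl4* lower and *Ccl2*, a monocyte chemokine, higher, where 4.64% of all tested genes were called. *Ccl2*, named here after its values were seen, was at 7.75 and 11.1 in control and 37.7 and 278 in Bptf cKO, with as few as 8 reads in a library and most of its reads in 1 Bptf cKO library. *Tnf* itself was at 118 and 155 in control and 138 and 226 in Bptf cKO, with the genotypes overlapping (log2 fold change 0.38, limma adjusted p = 0.629).

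**Figure D4:**
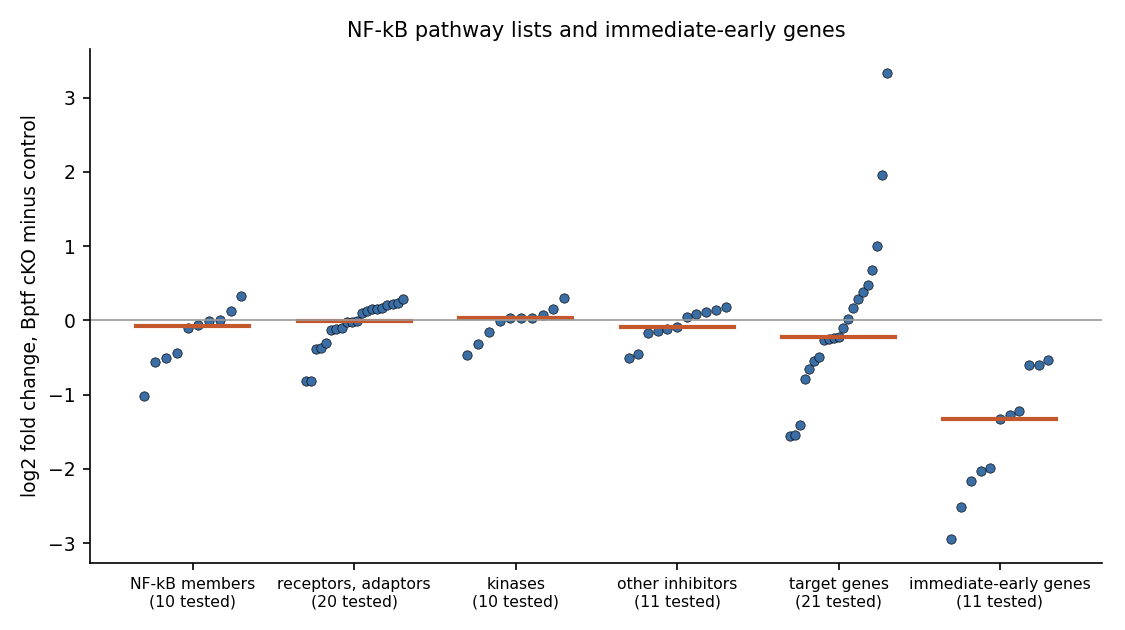
Log2 fold change, Bptf cKO minus control, of each tested gene (points) in the NF-kB list, in the 4 lists of other pathway genes and in the immediate-early list, with orange lines for the medians. The medians of the first 5 lists lie between -0.22 and 0.030, where that of the targets is 0.0023 and that of the kinases -0.024 without Bptf cKO replicate 1, and the immediate-early median is -1.34.

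Several feedback genes are induced within minutes of a stimulus, as immediate-early genes such as *Fos* are, and 11 of the latter were set beside them. *Zfp36*, which encodes an RNA-binding protein that destabilises cytokine transcripts, was at 10452.5 and 15449 normalized counts in control and 3573 and 2853 in Bptf cKO. It fell by 1.99 on the log2 scale (limma adjusted p = 0.0368) and was the only one of the 11 called by limma, where 0.37% of tested genes were called lower. DESeq2 called 7 of the 11 lower, *Fos*, *Fosb*, *Jun*, *Junb*, *Dusp1*, *Btg2* and *Zfp36*, beside 438 of all 14858 tested genes. With the replicate number as a block, limma called 8 lower, these and *Egr1*, beside 845 of all tested genes. *Fosb* and *Fos* had log2 fold changes of -2.95 and -2.51 (limma adjusted p of 0.132 and 0.0673). The summed level of the 11 genes was 79046 normalized counts in control replicate 1, 181851 in control replicate 2, and 27622 and 31429 in the Bptf cKO libraries. Without control replicate 2 the median log2 fold change of the 11 was -1.05, against -1.34 over all libraries. Without control replicate 1 the median was -2.33, and without Bptf cKO replicates 1 and 2 it was -1.26 and -1.69. The call of *Zfp36* was lost without either Bptf cKO library.

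Control replicate 2 was the library with the highest value for all 11 immediate-early genes and for 4 of the 5 feedback genes. For *Nfkbia* it was so only narrowly, at 1268 against 1267 in control replicate 1. Control replicate 2 was highest for 6 of all 10 NF-kB genes, *Nfkb1* and *Nfkb2* included, against 26.3% of all tested genes. *Fos* was 2.30 times and *Egr1* 3.98 times as high there as in control replicate 1, beside 1.92 times for *Nfkbiz*, 1.70 for *Tnfaip3*, 1.34 for *Nfkbid* and 1.00 for *Nfkbia*. The subunits differed between the control libraries by 0.989 to 1.19 times. With and without control replicate 2 the log2 fold change of *Nfkbia* was -0.50, its 2 control libraries being nearly equal. Without Bptf cKO replicate 1 it was -0.37. The part of the immediate-early level of control replicate 2 in the differences of the feedback genes was not tested.

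**Figure D5:**
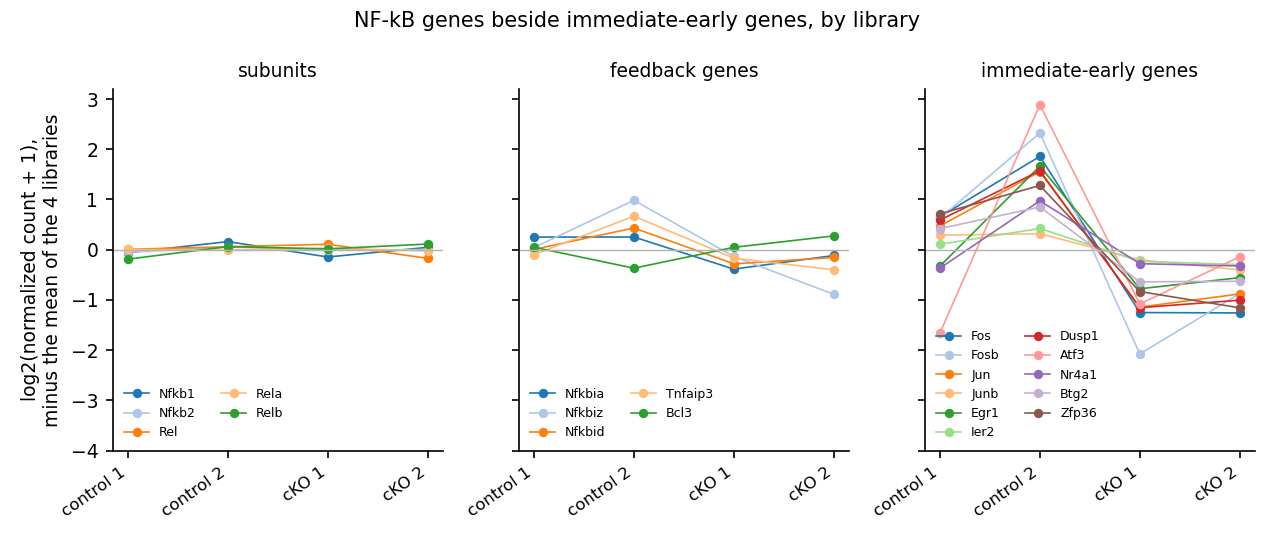
Log2 of the normalized count plus 1 of each gene in the 4 libraries, minus its mean over them, for the 5 subunits, the 5 feedback genes and 11 immediate-early genes. Lines only join the values of a gene. Control replicate 2 is highest for all 11 immediate-early genes and for 4 of the 5 feedback genes, only narrowly for Nfkbia. It is also highest for the subunits Nfkb1 and Nfkb2, and all subunits stay near 0.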

How the data were processed

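RNA-seq libraries of sorted LSK cells, 2 control and 2 Bptf cKO, were grouped and numbered by the sample labels. The submitters' processing notes name HISAT2, featureCounts, DESeq2, GRCm38 and mm10; versions and the strand setting of the counting are not given in the sources used here. The authors deposited a signal per gene and library, gene counts divided by a size factor, with their mean. They also deposited a log2 fold change with its standard error, a score (the first divided by the second), a p-value and an adjusted p-value; these columns of the authors' own comparison were not used.

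Dividing each library by its smallest value above 0 gave whole numbers for 100% of values (within 0.01 reads), which were taken as reads, with totals of 14091054 to 30134742. The fewest reads of a listed gene, summed over libraries, were 11. The 10 genes had at least 151 reads in every library, and the error of each comparison comes from 2 libraries per genotype.

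Genes averaging 10 or more normalized counts were fitted with limma 3.58.1 in R 4.3.3 on log2 of the normalized count plus 1, by genotype alone, with limma's trend option, two-sided tests and p-values adjusted by Benjamini-Hochberg. Whole-read counts were tested with edgeR 4.0.16 (quasi-likelihood, TMM) and DESeq2 1.42.0 (Wald) as alternatives. The fits were tested on simulated data. The gene lists and members were chosen with earlier results of these data known. From each list of pathway genes the text names those called and, among genes averaging 100 or more, up to 2 with the largest rise and 2 with the largest fall. *Bcl2a1b* and *Cxcl1*, on the target list, were without a row in the table. Coordinates and lengths came from GENCODE vM21 by symbol, and promoters from RefSeq. Of the genes closest to *Nfkbia* in pattern, 1 is not reported here.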

Additional observations from a re-analysis of the deposited data

How the results depend on the processing

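Across the 14 alternatives, the 140 values of the 10 genes kept their direction and their side of an adjusted p of 0.05 in 129 cases, with 0 genes called in 13 alternatives. Only the replicate block called a gene: with the replicate number as a block in limma, *Nfkbiz* was called lower (1 of 10, adjusted p = 0.0265), and *Nfkbia* (0.00995) and *Nfkbid* (0.0341) passed the adjusted p but not the fold change of 1.5. Without the block, the adjusted p over the alternatives was 0.0828 to 0.581 for *Nfkbia* and 0.0616 to 0.857 for *Nfkbiz*. Over all genes the block called 845 lower and 454 higher, against 55 and 55 without it. The labels say nothing of a shared animal or day behind the numbers. Both replicates 1 held more reads than both replicates 2, so that the block cannot be told apart from depth. Deviations of same-numbered libraries from their genotype's mean had a correlation of 0.452 across the 14858 genes and 0.638 across the 10815 genes averaging 100 or more.

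DESeq2 called 438 genes lower and 252 higher, and limma without the trend 0 and 2 (the cause was not tested). With 1 library left out, which assumes that a lone library varies like the other genotype's, 0 to 41 genes were called lower and 1 to 76 higher. The counts were 41 and 76 without control replicate 1, and 0 and 1 without either Bptf cKO library. The median over the 10 genes was then -0.15 to -0.022, without control replicates 1 and 2. The 8 reversals were all in subunits near 0. With a library left out, log2 fold changes ran from -0.21 to 0.012 for *Nfkb1*, -0.056 to 0.045 for *Nfkb2*, -0.21 to 0.075 for *Rel* and -0.019 to 0.029 for *Rela*. Recentring on the medians moved *Nfkb2* to 0.046, and quantile normalization moved *Nfkb2* to 0.012 and *Rela* to -0.037. The ranks by level per length were chosen after seeing the data to be repeated over 2 other lengths, as was leaving out a control library from the count of separated genes. The share of depth and of library number in the error was not tested.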
